A study of Mus musculus with 4 samples.

Results

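A set of 10 genes that establish or mark the identity of mammary epithelial cells were followed in 4T1-T cells, which derive from the mouse mammary carcinoma line 4T1: the transcription factors Gata3, Elf5, Foxa1, Tfap2c, Trp63, Id4, Sox9 and Sox4, and the receptors for oestrogen and progesterone, Esr1 and Pgr. They were chosen by gene symbol, and all 10 had a row among the 23481 genes of the count table. Cells of both groups carried a silenced asparagine synthetase gene (Asns), and the groups differed in the asparagine content of the DMEM they grew in. There were 2 RNA sequencing libraries (A and B) from cells grown without asparagine, written −Asn here, and 2 from cells grown with it, written +Asn. The labels do not state how Asns was silenced or whether the cells were 1 clone.

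The mammary epithelium has an inner luminal and an outer basal layer, and each depends on its own transcription factors. GATA3 is needed to form and keep luminal cells, and FOXA1 opens chromatin so that the oestrogen receptor can bind. ELF5 drives the milk-producing alveolar fate, while p63, the product of Trp63, maintains basal cells. In the normal gland only a part of the luminal cells makes the oestrogen and progesterone receptors, and many mammary carcinomas have lost both.

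The libraries held 17977552 and 22581543 gene counts in −Asn A and B, and 23867011 and 30260582 in +Asn A and B. Library −Asn A stood apart, with 56.6% of its reads outside annotated features, against 46.3% to 49.3% in the other 3 libraries. The ribosomal precursor Rn45s took 3.53% of its gene counts, against 0.884% to 1.66%. Its part in the differences below was not tested. Levels are given as CPM, the counts of a gene scaled to library size. Asns itself averaged 82.1 ± 10.1 CPM in −Asn and 102 ± 0.990 CPM in +Asn cells (SD, n = 2 each, edgeR adjusted p = 0.235), with no unsilenced library analysed here. Among marker lists for other cells, the 6 adipocyte genes and the 8 leukocyte genes were each under 1 CPM in every library. The same held for 7 of 8 fibroblast genes, the exception being the receptor gene Pdgfra (18.1 and 22.8 CPM in −Asn A and B, 42.8 and 40.7 CPM in +Asn A and B, edgeR adjusted p = 0.0221), whose part in the results was not tested, and for 5 of 6 endothelial genes, the exception being the receptor gene Tek. All 8 luminal keratin and junction markers were above 1 CPM in every library, and 1 of them, the adhesion gene Epcam, was called higher (62.0 ± 4.44 CPM in −Asn and 38.8 ± 2.06 CPM in +Asn cells, SD, n = 2 each, edgeR adjusted p = 0.0368). By contrast, 5 of 7 hormone-sensing luminal markers were under 1 CPM in every library. So were 6 of 8 luminal progenitor and alveolar markers. Of 8 basal and myoepithelial markers 5 were below 1 CPM throughout, Krt5 among them, so the basal label rested on Krt14 and the contractile genes Acta2 and Mylk.

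The 10 genes spanned nearly the whole range of expression. Their order by mean level per length was the same without and with asparagine except that Id4 was above Tfap2c without it (0.133 against 0.0270 CPM per kilobase of exons) and just below it with asparagine (0.110 against 0.113). Sox9 and Gata3 were abundant, Sox4 was intermediate, Foxa1 and Esr1 were low, and Id4, Tfap2c, Elf5, Trp63 and Pgr were close to absent. For levels between genes, CPM were divided by the merged exon length in kilobases from GENCODE M21, giving CPM per kilobase. On that scale Sox9 was at 55.6 and 52.7 in −Asn A and B and at 51.5 and 57.4 in +Asn A and B. It ranked between 668 and 786 among the 21871 genes with a length. Gata3 followed with 44.0 and 33.8 in −Asn A and B and 30.4 and 32.2 in +Asn A and B, which did not overlap the range of Sox9. Sox4, which has a single exon, had 9.43 and 7.42 against 6.22 and 6.51 per kilobase in the same order of libraries.

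Below these came a gap of about an order of magnitude. Foxa1 averaged 0.549 and Esr1 0.435 CPM per kilobase over the 4 libraries, and their ranges overlapped. With the longest transcript of 6339 bases in place of its merged exons of 13661 bases, Esr1 averaged 0.937 and stood above Foxa1 (0.573). Id4 averaged 0.122, with every library below the lowest Esr1 value. Tfap2c (0.0698), Elf5 (0.0196), Trp63 (0.0166) and Pgr (0.00771) followed, and each overlapped the next in this order. The median over all genes with a length was 0.446 to 0.533 per library, so Foxa1 and Esr1 lay near the middle of all annotated genes.

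**Figure D1:**
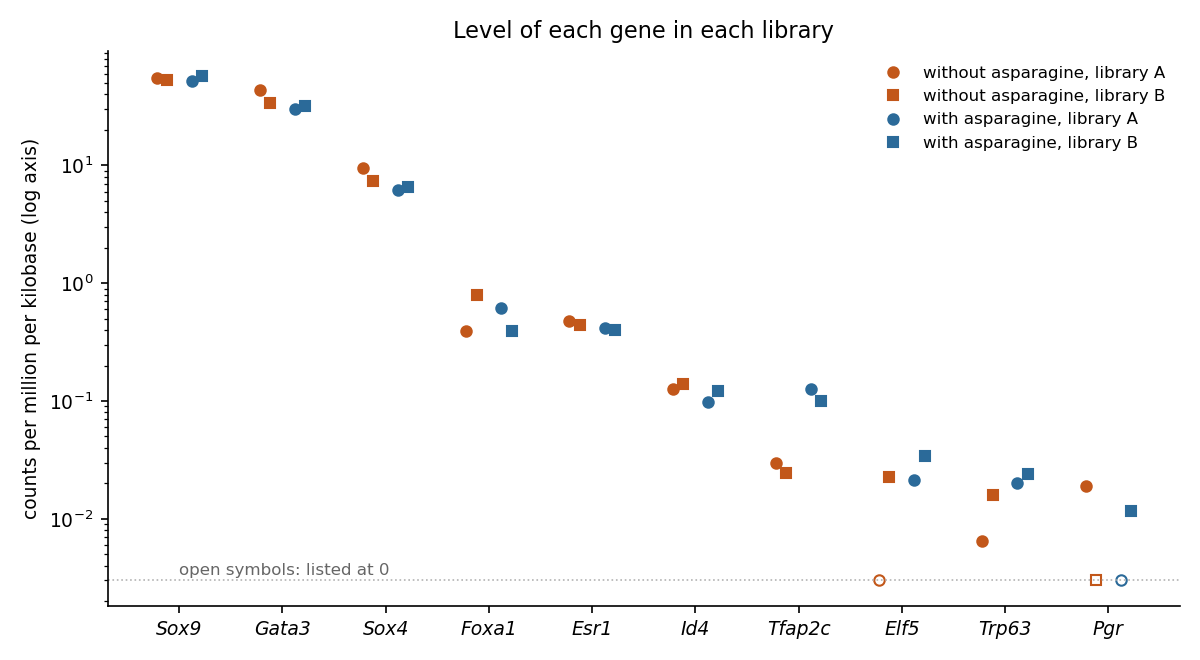
Level of each of the 10 genes in CPM per kilobase of merged exons on a log axis, with a point per library (orange, −Asn; blue, +Asn; circle, A; square, B). Sox9 at 51.5 to 57.4 and Gata3 at 30.4 to 44.0 lie far above Pgr, which was listed at 0 in 1 library of each group, as Elf5 was in −Asn A.

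Of the 10 genes 6 had enough reads to be tested, and none was called. The test was edgeR's quasi-likelihood test of −Asn against +Asn over all 12843 tested genes, with an adjusted p threshold of 0.05. Over all tested genes it called 1.85%, 0.771% higher and 1.07% lower, and 0 of 6 is near that background, so it is no result about these genes. Of the 6, 1, Sox4, had an unadjusted p under 0.05, as did 18.1% of all tested genes, while DESeq2 and limma-voom likewise called none, with 1 such gene each. Nothing in the labels says that libraries A and B came from separate cultures, so the p-values measure the spread between these libraries, which may be technical. In bulk RNA, fewer cells of a type and less RNA per cell cannot be told apart.

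**Figure D2:**
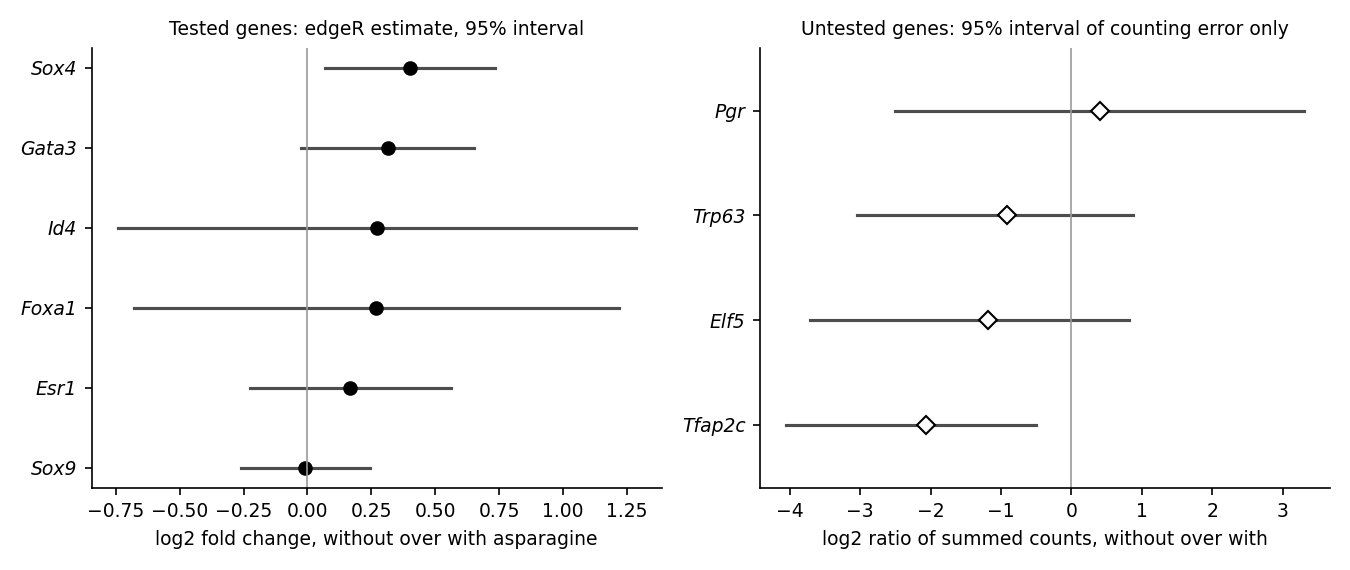
Difference between −Asn and +Asn cells on the log2 scale. Left, the 6 tested genes with edgeR estimates and 95% intervals, where the interval of Sox4 (0.07 to 0.74, not adjusted) is the one that excludes 0; right, the 4 untested genes with the ratio of summed counts and intervals of counting error only, where that of Tfap2c excludes 0.

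The luminal factor Gata3 had 175 and 134 CPM in −Asn A and B, against 121 and 128 CPM in +Asn A and B. Both −Asn libraries lay above both +Asn libraries, but −Asn B was only just above the higher of them. The log2 fold change was 0.31 ± 0.14 (SE), with a 95% interval of -0.02 to 0.65 and an adjusted p of 0.306 by edgeR. The counts were 3215 and 3003 in −Asn A and B, and 2874 and 3841 in +Asn A and B. Leaving out −Asn A gave a log2 fold change of 0.11. Without −Asn B it was 0.49, so the size of the Gata3 difference rested on 1 library. Gata3 lies on chromosome 2 from 9857078 to 9890034 on the minus strand. In GENCODE M21 an exon of 9230102O04Rik overlaps it on the same strand and one of Gm13256 on the opposite strand. The 9230102O04Rik row held 1.84 to 2.59 CPM.

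Foxa1 had 24 and 59 counts in −Asn A and B and 49 and 39 counts in +Asn A and B. These were 1.31 and 2.64 CPM without asparagine, against 2.06 and 1.30 CPM with it, and the groups overlapped. Its log2 fold change was 0.27 ± 0.40 (SE), with a 95% interval of -0.68 to 1.22 (edgeR adjusted p = 0.747), wide enough to hold a 2-fold change in the higher direction. It was 0.67 without −Asn A, and the sign turned to -0.34 without −Asn B and to -0.05 without +Asn B. Foxa1 lies on chromosome 12 from 57540628 to 57546916.

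Elf5, the alveolar factor, was listed at 0 and 3 counts in −Asn A and B and at 3 and 6 counts in +Asn A and B, or 0 and 0.134 CPM without and 0.126 and 0.200 CPM with asparagine. A count of 0 allows up to 3 counts, or 0.164 CPM in −Asn A. Summed over the 2 libraries of a group there were 3 counts without and 9 with asparagine, a ratio of CPM of 0.440 with a 95% interval of 0.0767 to 1.76 that covers counting error only. A difference in Elf5 was not detectable at this depth. Elf5 lies on chromosome 2 from 103411688 to 103450989.

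Tfap2c, which encodes AP-2 gamma, a factor that luminal cells use, had 2 counts in each −Asn library and 11 in each +Asn library. These were 0.109 and 0.0895 CPM in −Asn A and B, and 0.462 and 0.367 CPM in +Asn A and B. The summed level was 0.0983 CPM (95% interval 0.0268 to 0.252) without asparagine and 0.409 CPM (0.256 to 0.619) with it. Both −Asn libraries were thus below both +Asn libraries, and the ratio of 0.240 had a counting interval of 0.0602 to 0.707. With too few reads for the filter, Tfap2c had no test, and with the filter removed its log2 fold change was -2.01 ± 0.90 (SE), which edgeR did not call (adjusted p = 0.196). Rarely read genes as a class were seen more often in the +Asn libraries, since 3159 genes had reads there alone, against 388 in −Asn libraries alone. These numbers are not corrected for depth, and both +Asn libraries held more gene counts than either −Asn library. The median ratio was 0.660 among genes with a total of 5 to 9 counts, 0.925 at 10 to 19 counts and 1.08 at 20 to 32 counts. Of the 637 genes with 20 to 32 counts, 2.04% had a ratio as low as that of Tfap2c. The range of 20 to 32 was chosen after the values were seen, so this share is not a p-value. The cause of the Tfap2c difference was not tested. Tfap2c lies on chromosome 2 from 172549593 to 172558622.

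The basal factor Trp63 was almost silent, with 1 and 3 counts in −Asn A and B and 4 and 6 counts in +Asn A and B. In CPM these were 0.0545 and 0.134 without asparagine, below 0.168 and 0.200 with it. Over all tested genes, 26.4% had both −Asn libraries below both +Asn libraries, as Tfap2c and Trp63 did among the untested ones. That share covers tested genes alone, so it is not a background for genes with so few reads. For Trp63 the ratio of summed counts was 0.528, with a 95% counting interval of 0.121 to 1.83. Among 940 genes with 10 to 19 counts in all, 25.4% had a ratio as low as this, and the difference was not detectable. Trp63 lies on chromosome 16 from 25683763 to 25892102. Id4, whose product binds other helix-loop-helix factors and keeps them off DNA, had 9 and 12 counts in −Asn A and B and 9 and 14 in +Asn A and B. Its CPM of 0.491 and 0.537 without asparagine lay just above 0.378 and 0.467 with it, and the log2 fold change of 0.27 had a 95% interval of -0.74 to 1.28 (edgeR adjusted p = 0.765). Id4 lies on chromosome 13 from 48261228 to 48266026, and its exons overlap those of A330033J07Rik and Gm49291 on the opposite strand.

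Sox9, a factor of luminal progenitors and of several epithelial stem cells, had the most reads of the 10 genes. Its level was 230 and 218 CPM in −Asn A and B and 213 and 237 CPM in +Asn A and B. The groups overlapped, and the log2 fold change of -0.01 had the narrowest 95% interval of the tested genes, from -0.26 to 0.24 (edgeR adjusted p = 0.973). Its counts were 4219 and 4870 in −Asn A and B, and 5069 and 7114 in +Asn A and B. Without −Asn A the log2 fold change was -0.05. Upper quartile scaling put it at 0.04 and moved the median of all tested genes by about as much, to 0.06. Sox9 lies on chromosome 11 from 112782224 to 112787760.

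Sox4, a SOX factor of group C linked in tumours to TGF-beta signalling, had the largest difference among the tested genes. It had 45.2 and 35.6 CPM in −Asn A and B, against 29.8 and 31.2 CPM in +Asn A and B. Both −Asn libraries were above both +Asn libraries, and the 2 −Asn libraries differed more from each other than the 2 +Asn libraries did. The log2 fold change was 0.40 ± 0.14 (SE), or 1.32-fold, with a 95% interval of 0.07 to 0.74 (edgeR adjusted p = 0.209). Its counts were 830 and 795 in −Asn A and B, and 710 and 935 in +Asn A and B. Without −Asn A the log2 fold change came to 0.22, and without −Asn B it was 0.56. Sox4 lies on chromosome 13 from 28948919 to 28953713, and an exon of Gm26735 overlaps it on the opposite strand.

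Among the receptors, Esr1 was measurable but low, at 6.49 and 6.08 CPM in −Asn A and B and 5.67 and 5.50 CPM in +Asn A and B. Its counts were 119 and 136 in −Asn A and B, and 135 and 165 in +Asn A and B. The −Asn libraries were slightly higher without overlap, and the log2 fold change was 0.17 ± 0.17 (SE), with a 95% interval of -0.23 to 0.56 (edgeR adjusted p = 0.621), and it was 0.12 without −Asn A. Over all tested genes, 26.1% had both −Asn libraries above both +Asn libraries. Of the 6 tested lineage genes 4 did, namely Gata3, Id4, Sox4 and Esr1. That is a larger share, but it rests on few genes and was not tested. Pgr, which is itself switched on by the oestrogen receptor in the normal gland, had 3 and 0 counts in −Asn A and B and 0 and 3 counts in +Asn A and B, or 0.164 and 0 CPM without and 0 and 0.100 CPM with asparagine. Its summed level was 0.0737 CPM (95% interval 0.0152 to 0.215) without asparagine and 0.0558 CPM (0.0115 to 0.163) with it. Esr1 lies on chromosome 10 from 4611593 to 5005614 and Pgr on chromosome 9 from 8899833 to 8968611.

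**Figure D3:**
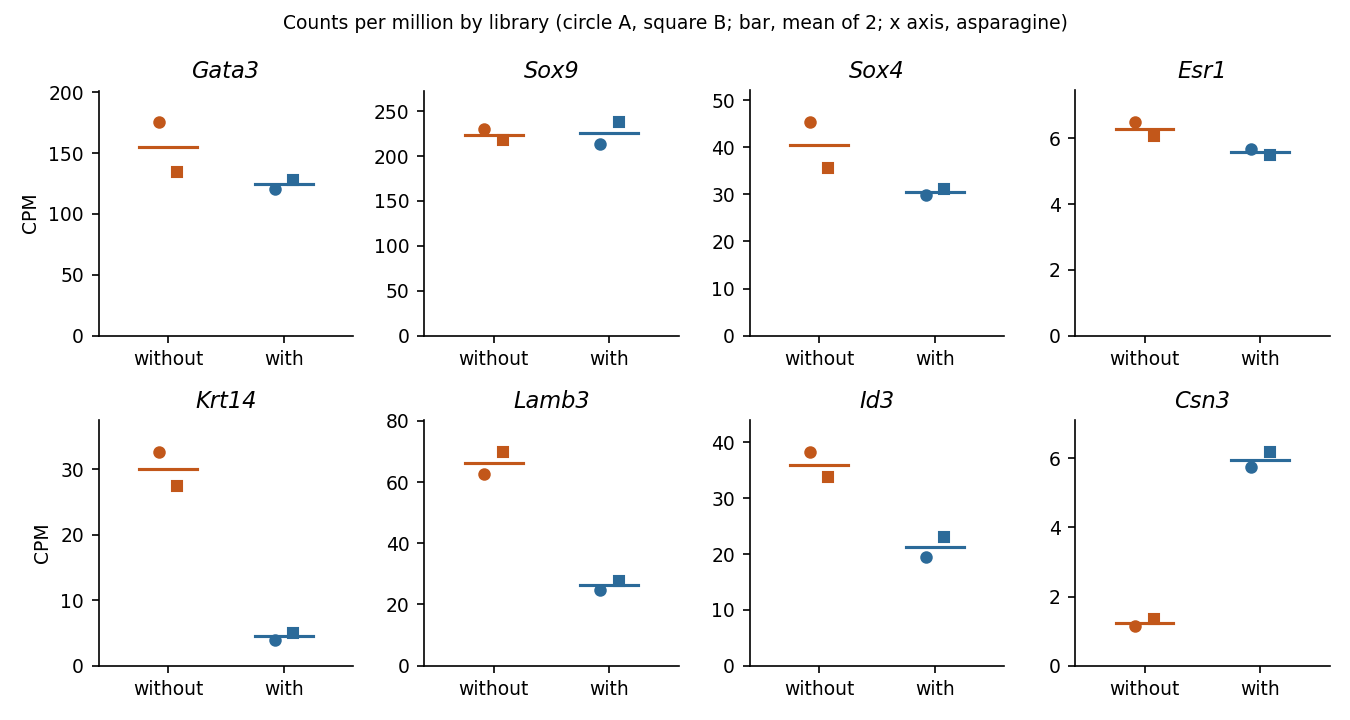
CPM by library for Gata3, Sox9, Sox4 and Esr1 (upper row) and for Krt14, Lamb3, Id3 and Csn3 from the related lists (lower row), −Asn left and +Asn right, circle A, square B, bar the mean of 2. None of the 4 lineage genes was called, while Krt14, which was called higher, stands at 32.6 and 27.4 CPM in −Asn cells, against 3.99 and 4.97 CPM in +Asn cells.

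RefSeq promoter sequences of build GRCm38.p6, from 250 bases before to 50 after a gene's start, were on hand for 7 of the 10 genes, with 9 starts in all. The 4 below are shown because their genes cover the range from abundant to nearly silent while their CpG content does not follow that order. Capitals mark each CpG dinucleotide, the site of DNA methylation in mammals, and each line runs 5′ to 3′ on the gene's strand.
Gata3 promoter, chr2:9878551-9878850, minus strand: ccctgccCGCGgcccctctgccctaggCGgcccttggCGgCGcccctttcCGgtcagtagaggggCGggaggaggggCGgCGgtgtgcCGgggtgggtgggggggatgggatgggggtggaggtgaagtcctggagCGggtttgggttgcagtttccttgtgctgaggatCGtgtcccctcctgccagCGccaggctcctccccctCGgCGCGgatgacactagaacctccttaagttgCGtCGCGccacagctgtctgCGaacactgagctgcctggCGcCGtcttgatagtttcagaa
Sox4 promoter, chr13:28953650-28953949, minus strand: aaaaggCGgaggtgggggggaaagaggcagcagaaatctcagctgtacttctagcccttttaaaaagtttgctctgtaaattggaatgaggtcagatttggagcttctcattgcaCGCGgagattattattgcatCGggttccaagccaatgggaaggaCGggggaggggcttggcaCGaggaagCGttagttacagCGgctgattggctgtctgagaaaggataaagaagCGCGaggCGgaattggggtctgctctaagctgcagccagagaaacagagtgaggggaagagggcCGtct
Id4 promoter, chr13:48260866-48261165, plus strand: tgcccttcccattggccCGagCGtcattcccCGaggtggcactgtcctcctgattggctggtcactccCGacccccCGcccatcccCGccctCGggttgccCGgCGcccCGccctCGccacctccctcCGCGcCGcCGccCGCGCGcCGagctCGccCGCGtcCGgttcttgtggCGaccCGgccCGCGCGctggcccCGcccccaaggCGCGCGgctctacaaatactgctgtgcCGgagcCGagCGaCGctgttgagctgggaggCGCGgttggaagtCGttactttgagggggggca
Pgr promoter, chr9:8899583-8899882, plus strand: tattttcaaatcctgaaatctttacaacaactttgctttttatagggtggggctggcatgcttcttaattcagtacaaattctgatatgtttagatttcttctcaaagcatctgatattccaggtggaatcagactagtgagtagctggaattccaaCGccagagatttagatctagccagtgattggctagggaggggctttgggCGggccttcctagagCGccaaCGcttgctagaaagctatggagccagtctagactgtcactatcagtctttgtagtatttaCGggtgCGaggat

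The promoters of Gata3 and Sox4 held 22 and 12 CpG, that of the barely read Id4 held 39, and that of Pgr held 6. The median over 32851 promoters was 7, with quartiles of 3 and 20, and Id4 lay at percentile 96.1. Foxa1 held 26 CpG, the 2 starts of Esr1 held 6 and 12, and those of Elf5 held 3 and 10. Among the printed promoters, which were picked for this contrast, those richest in CpG belonged to Gata3, at a high level, and to Id4, at a level near 0. No relation of CpG content to level was tested, and Sox9, Trp63 and Tfap2c had no promoter on hand. Methylation was not measured. Then 4 motifs were searched on both strands with overlaps allowed. AGATAA, a single form of the GATA site, was in none of the 9 promoters and in 11.2% of all. Other forms of that site were not searched, and the Gata3 promoter printed above holds such a form. The absence of AGATAA is therefore not an absence of GATA sites. ACAATG, a SOX motif, was in 1 of the Elf5 promoters and in 12.6% of all. AGGTCA, a core that nuclear receptors bind, was in the Sox4 promoter and in 16.3% of all. The E-box CANNTG, the class of site from which ID proteins keep other factors, was in promoters of 6 of the 7 genes and in 72.3% of all.

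For several of the nearly silent genes a close relative was well expressed. Tfap2a, the paralog of Tfap2c, had 26.6 and 24.0 CPM per kilobase in −Asn A and B and 25.7 and 25.9 in +Asn A and B, while Tfap2c reached no more than 0.126. Its log2 fold change was -0.03 (edgeR adjusted p = 0.901). Trp53 had 20.6 and 21.3 CPM per kilobase in −Asn A and B and 15.5 and 15.8 in +Asn A and B, against at most 0.0239 for Trp63 and 0 in both −Asn libraries for Trp73. Gata4 averaged 2.41 and Gata2 0.257 over the 4 libraries, both below Gata3, and Gata6 was listed at 0 throughout. Among receptors, the glucocorticoid receptor gene Nr3c1 averaged 12.5 and the second oestrogen receptor gene Esr2 0.549. These relatives other than Id3 were picked after their values were seen.

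**Figure D4:**
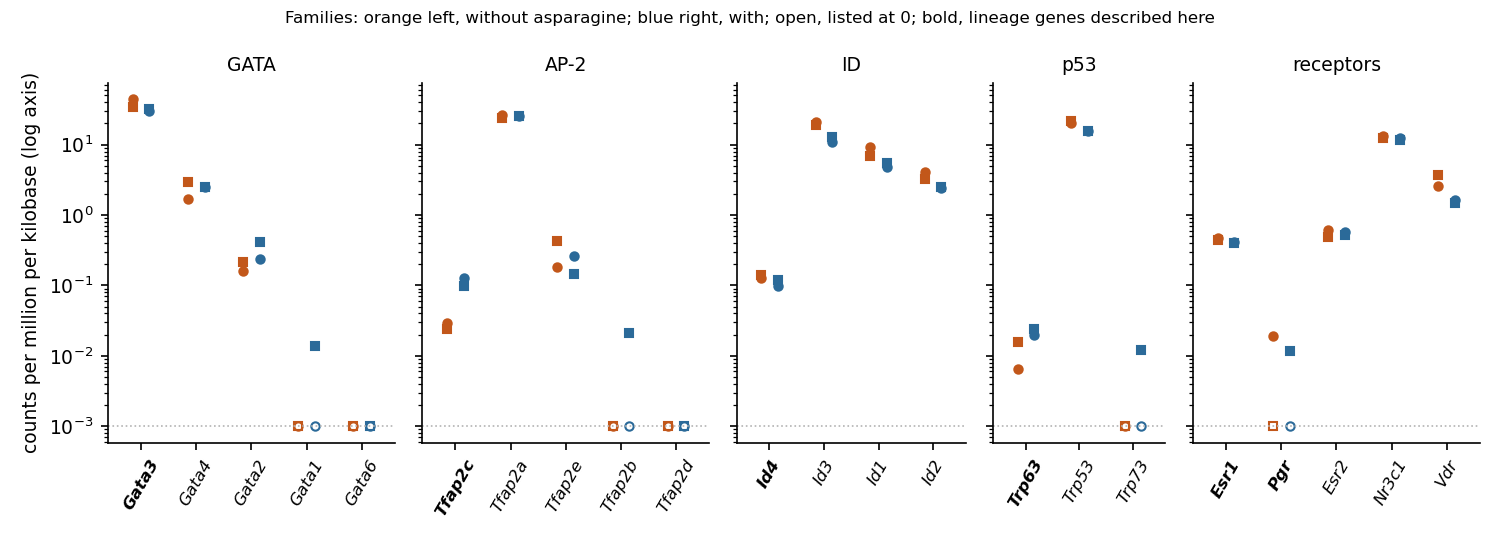
Levels in CPM per kilobase (log axis) of the lineage genes, in bold, beside members of their families and other hormone receptors, with −Asn in orange at left and +Asn in blue at right. Tfap2a at 24.0 to 26.6 and Trp53 at 15.5 to 21.3 stand far above Tfap2c and Trp63, and Gata3 stands above the other GATA genes.

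Of 30 paralogs 15 were tested, and 1 was called, or 6.67% beside 1.85% of all tested genes. Id3, an inhibitor of DNA binding like Id4, rose to 38.2 and 33.8 CPM in −Asn A and B, against 19.5 and 23.0 CPM in +Asn A and B. Its log2 fold change was 0.76 ± 0.14 (SE, edgeR adjusted p = 0.047). The call was lost with the 5 CPM filter (adjusted p = 0.0512) and without either +Asn library (0.64 and 0.88, adjusted p = 0.554 and 0.215). Without −Asn A it was 0.66 and was called. Id1 and Id2 had log2 fold changes of 0.65 and 0.55 and were not called (adjusted p = 0.161 and 0.184). The paralog median was -0.01, beside 0.01 for all tested genes.

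Other regulators of the luminal and basal layers gave no calls. Of 24 luminal regulators 18 were tested, with 10 above and 8 below 0, a median of 0.05 and 3 with an unadjusted p under 0.05, a share near the 18.1% of all tested genes. Grhl2, a grainyhead factor that keeps epithelial junctions, had the smallest p (29.3 ± 1.17 CPM in −Asn and 22.4 ± 0.941 CPM in +Asn cells, SD, n = 2 each, edgeR adjusted p = 0.161). Of 24 basal and stem cell regulators 18 were tested, with a median of -0.07. Of these 18, 7 had an unadjusted p under 0.05, a larger share than the 18.1% of all tested genes. The forkhead gene Foxc2 had the smallest p, at 20.5 and 22.8 CPM in −Asn A and B and 35.3 and 32.6 CPM in +Asn A and B (a log2 difference of -0.65, adjusted p = 0.056). DESeq2 called 0 of 18 luminal and 4 of 19 basal regulators, beside 429 of 12908 genes over all. Foxc2 was among those it called (DESeq2 adjusted p = 0.0166). Leaving out either −Asn library gave more calls in both lists than the main fit. Leaving out −Asn A did so over all genes as well, so added calls were not particular to these lists.

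The genes linked to p63 in basal epithelia were the list with the largest share of calls, although Trp63 itself had at most 6 counts in a library. Of 22 such genes 16 were tested, with 10 above and 6 below 0 and a median log2 fold change of 0.64. Of the 16, 6 were called higher and none lower, or 37.5% called beside 1.85% of all genes. DESeq2 called 6 higher and 1 lower. Among those below 0, Bnc1 had the largest difference (-0.54, edgeR adjusted p = 0.0609). These lists were written with earlier results on Krt14 known, so these counts are not independent evidence of its direction. Krt14, the keratin of basal cells, rose to 32.6 and 27.4 CPM in −Asn A and B, against 3.99 and 4.97 CPM in +Asn A and B (a log2 difference of 2.73 ± 0.17 SE, edgeR adjusted p = 0.00434). Lamb3, the beta chain of laminin-332, had 62.7 and 69.7 CPM in −Asn A and B, against 24.8 and 27.7 CPM in +Asn A and B (a log2 difference of 1.33 ± 0.12, adjusted p = 0.00678). The others included, picked once values were known, the laminin chain gene Lama3 (log2 fold change 1.13), the Notch ligand gene Jag1 (0.99) and the desmosomal p53 and p63 target Perp (0.87). Krt5, the usual partner of Krt14 in basal cells, had no more than 0.0667 CPM in any library. Without +Asn A or +Asn B fewer members of the list were called, Krt14 and Lamb3 among them. Calls over all genes also moved widely between the fits with a library left out, so these calls cannot be read alone. Leaving out −Asn A gave 2.60 for Krt14 and 1.40 for Lamb3, both called. With −Asn A or −Asn B left out, members of the list were called in both directions. With −Asn A left out, calls also rose over all genes.

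Milk and alveolar genes, the programme that ELF5 serves, were mostly too low to test, with 8 of 20 tested, 2 lower and none higher, beside 1.07% of all tested genes called lower. Csn3, which encodes kappa-casein, fell to 1.14 and 1.34 CPM in −Asn A and B, against 5.76 and 6.17 CPM in +Asn A and B (a log2 difference of -2.25 ± 0.22 SE, edgeR adjusted p = 0.00799). Xdh, a xanthine oxidoreductase needed for milk fat secretion, fell to 2.71 ± 0.170 CPM in −Asn cells, against 5.77 ± 0.0974 CPM in +Asn cells (SD, n = 2 each, log2 fold change -1.09, adjusted p = 0.0461). Xdh was no longer called under upper quartile scaling (-1.04, adjusted p = 0.0636) or without +Asn A or B (-1.07 and -1.11, adjusted p = 0.392 and 0.366), with the fold about as large. Without −Asn A the values were -2.15 for Csn3 and -1.15 for Xdh, both called. The list median was -0.23, and the milk protein genes Csn2, Lalba, Ltf and Glycam1 were listed at 0 in all 4 libraries.

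Of 18 genes of the oestrogen and progesterone response 10 were tested, with 3 above and 7 below 0 and a median of -0.25. Of the 10, 2 were called lower and none higher, beside 1.07% of all tested genes called lower. Stc1, the hormone stanniocalcin-1, fell to 9.54 and 11.3 CPM in −Asn A and B, against 28.0 and 26.0 CPM in +Asn A and B (a log2 difference of -1.37 ± 0.14 SE, edgeR adjusted p = 0.0083). Xbp1, an oestrogen-responsive gene in breast cancer that also serves the unfolded protein response, fell to 36.9 ± 1.04 CPM in −Asn cells, against 56.2 ± 2.35 CPM in +Asn cells (SD, n = 2 each, adjusted p = 0.0424). Its log2 fold change was -0.61, and the call was lost with upper quartile scaling (-0.56, adjusted p = 0.0632) and without +Asn A or B (-0.65 and -0.57, adjusted p = 0.446 and 0.607), with the fold about as large. Without −Asn A the values were -1.25 for Stc1 and -0.64 for Xbp1, both called. Greb1, a classical oestrogen target, had means of 0.126 CPM without and 0.142 CPM with asparagine and was not tested. Areg, the growth factor gene amphiregulin, had 56.6 and 59.2 CPM in −Asn A and B and 67.1 and 69.6 CPM in +Asn A and B and was not called (adjusted p = 0.276). Both were named after their values were seen.

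Of 26 other nuclear receptors and co-regulators 23 were tested and 1 was called, or 4.35% beside 1.85% of all tested genes. Nrip1, a co-repressor of the oestrogen receptor, fell to 69.7 and 69.0 CPM in −Asn A and B, against 104 and 102 CPM in +Asn A and B (a log2 difference of -0.57 ± 0.10 SE, edgeR adjusted p = 0.0424). The call was lost with upper quartile scaling (-0.52, adjusted p = 0.0589), under which a different member was called higher and none lower. It was also lost without +Asn A or B (-0.56 and -0.58, adjusted p = 0.636 and 0.588), with the fold about as large. Without −Asn A it was -0.58 and was called. Of 17 genes linked to SOX9 or SOX4 in other tissues 10 were tested, 8 of them above 0, with a median of 0.14 and none called, and 1, Comp, with an unadjusted p under 0.05 (a log2 difference of 1.45, adjusted p = 0.203). DESeq2 called none of them either.

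**Figure D5:**
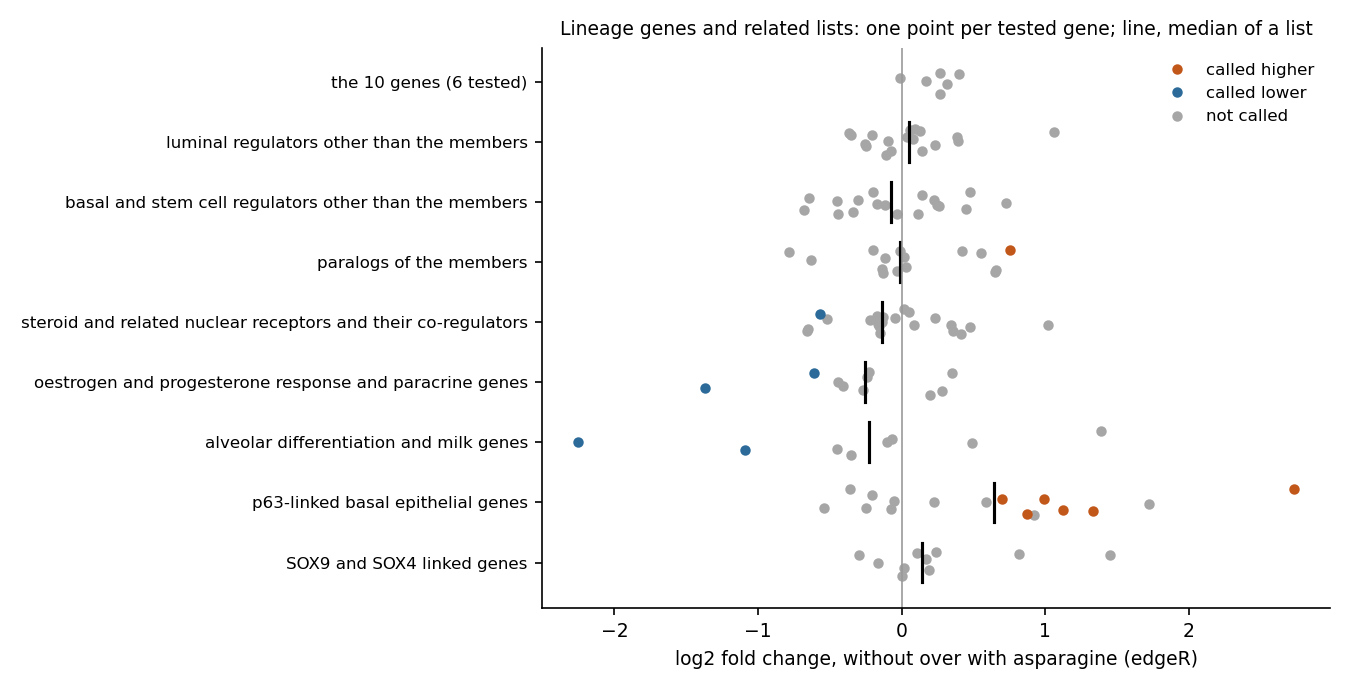
Log2 fold changes, −Asn over +Asn, of the 6 tested lineage genes and of the tested genes of each related list, a point per gene, with called genes in colour and a line at the median of each list. The p63-linked list holds 6 of the 7 distinct genes called higher, and the lineage genes hold none.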

How the data were processed

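RNA was purified with a Qiagen kit and amplified with the Nugen Ovation V2 system, per the labels' protocols. The deposited values were raw read counts per gene symbol made with Bowtie2 and HTSeq on mm10, per the submitters' processing notes; no version, annotation or strand setting is stated, so without strand a gene and its antisense partner cannot be separated. The 5 HTSeq summary rows, 60.1% to 70.0% of reads, were left out.

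All genes were fitted together in R 4.3.3 with edgeR 4.0.16: filterByExpr (minimum count 10, minimum total 15; 12843 genes kept), TMM scaling, quasi-likelihood test by group, Benjamini-Hochberg adjustment over all tested genes. SE is the fold change divided by the square root of F. CPM use the TMM-adjusted total. Intervals for sums are exact and cover counting error only. The fit was tested on simulated data. DESeq2 1.42.0 and limma 3.58.1 (voom) were alternatives, with other scalings and filters, the letter as a block and each library left out. A lone library was then assumed to vary like the other group. The −Asn libraries differed more from each other (chi-square per degree of freedom 45.5) than the +Asn libraries did (5.28). With a −Asn library left out, adjusted p-values may therefore be too small.

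Genes, lists and tests were chosen with earlier results of these data known. From each list up to 2 called genes with the largest change were named, or the gene with the smallest p. Gene positions are from GENCODE M21, on GRCm38 (mm10). Single values of some list genes are not reported here.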

Additional observations from a re-analysis of the deposited data

How the results depend on the processing

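None of the 10 lineage genes was called under other scalings, tools or filters, or with the letter as a replicate block, and leaving out a library gave 0 to 2 calls, the 2 being Gata3 and Sox4 without −Asn B. Over all genes 237 calls became 429 with DESeq2, 1334 without the low-count filter, 816 with the replicate block, and 48 to 5363 with a library left out. For the related lists 12 calls became 19, 31 and 24 in the same order, and 4 to 64 with a library left out. The fit without −Asn B, which called Gata3 and Sox4, was also the fit with the most calls over all genes. Its calls are therefore no result about these 2 genes. A and B share only a letter between the groups: their deviations correlated at 0.123 across genes, and nothing in the labels pairs them. The log2 fold change of Sox9 became 0.041 with upper quartile scaling and ranged from -0.087 to 0.068 with a library left out. That of Foxa1 ranged from -0.34 to 0.67 with a library left out. Causes were not tested. Levels per length kept the order of the genes with the longest transcript, except that Esr1 passed Foxa1. With 2 libraries a group, and under 30 counts in all for Tfap2c, Elf5, Trp63 and Pgr, depth limits what can be said of these 4.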

Other observations

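Some genes not called stood on the other side of 0 from a related gene. The forkhead gene Foxc1 had 68.5 and 51.7 CPM in −Asn A and B, against 42.8 and 43.3 CPM in +Asn A and B (edgeR adjusted p = 0.171), while its paralog Foxc2 was lower in −Asn cells. In the milk list, Btn1a1, a gene of the milk fat globule membrane, averaged 1.35 ± 0.368 CPM in −Asn cells, against 0.510 ± 0.127 CPM in +Asn cells (SD, n = 2 each, edgeR adjusted p = 0.146), opposite in sign to Csn3. Procr, which marks mammary stem cells, had 261 and 182 CPM in −Asn A and B, against 125 and 142 CPM in +Asn A and B (adjusted p = 0.114). The vitamin D receptor gene Vdr had 14.4 and 20.9 CPM in −Asn A and B, against 9.16 and 8.34 CPM in +Asn A and B (a log2 difference of 1.02, adjusted p = 0.0614). These genes were chosen after their values were seen.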
